A study of Homo sapiens with 6 samples.

Results

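The genes described here encode the enzymes of cholesterol and fatty acid synthesis together with the sensors and transcription factors of the SREBP pathway. They were chosen by name, as a list of 34 genes, and every probe carrying one of these symbols in the platform annotation was read from the non-normalised intensities of 47231 probes. A uniquely named probe was found for 33 of the 34, and 32 were detected on enough arrays to be tested, out of 9718 genes tested in all. FDFT1, the squalene synthase gene, was not analysed here. The list holds 18 genes of sterol synthesis, 10 of fatty acid synthesis and modification, and 6 regulators and sterol carriers.

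The samples were cultures of SK-Hep1, an established human line from a hepatic adenocarcinoma. All 6 were transfected with siRNA and profiled at day 3 on 1-colour Illumina bead arrays, which read labelled RNA as probe brightness. The control group of 3 samples received a control siRNA, named siLuc in the labels, and the knockdown group of 3 samples received siRNA against YAP1 and TAZ together. TAZ is the protein of the gene WWTR1. Both groups share the line and the transfection itself, a single line stands for the tissue, and depletion of YAP1 or TAZ alone was not analysed here. Whether each replicate was its own culture is not given in the labels, and the p-values rest on sample-to-sample spread that may be only technical.

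Cells control sterol supply by feedback. When the endoplasmic reticulum is rich in sterol, INSIG proteins hold SCAP and the SREBP precursors there. When sterol is scarce, SCAP carries the precursors to the Golgi, where proteases release the part that enters the nucleus and switches on lipid synthesis genes. SREBP2, from SREBF2, acts mainly on sterol genes, and SREBP1, from SREBF1, mainly on fatty acid genes. INSIG1 is itself a target of SREBPs, and liver is a main site of both syntheses. YAP1 and TAZ are transcriptional co-activators held in check by the Hippo kinase cascade.

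The knockdown was visible in its targets. YAP1 was 5.33-fold lower in the knockdown group (log2 change -2.42 ± 0.0936, SE, n = 3 and 3; limma adjusted p = 2.15e-08). WWTR1 was at least 2.34-fold lower and was not above background on any knockdown array (adjusted p = 6.75e-07). CCN1 and CCN2, textbook targets of YAP1 and TAZ, were 8.07-fold and 7.29-fold lower. Between 13620 and 16827 probes were detected per array, and replicates correlated at 0.990 to 0.995 against 0.932 to 0.944 between groups. The line is labelled hepatic, but of 12 hepatocyte markers, 11 with a named probe, only ALB (log2 change -0.48) and SERPINA1 (1.5) were detected on enough arrays to be tested. Of 8 endothelial markers, 0 were detected on any array. In bulk RNA, fewer cells with a transcript and less of it per cell cannot be told apart.

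Limma tests, 2-sided, with Benjamini-Hochberg adjustment over all detected probes were used throughout, at a threshold of 0.05, and values are log2 intensities after background correction and quantile normalisation. Such a value compares the same gene between arrays and not one gene with another. The contrast moved much of the transcriptome, since 54.8% of the 9718 genes tested passed the threshold, 27.4% higher and 27.5% lower in the knockdown. Against that background, 20 of the 32 tested lipid genes passed (62.5%), 6 higher and 14 lower, with 12 short of the threshold. Their median log2 change was -0.16, beside 0.0016 over all genes. The share passing was thus near that of all genes, and the detailed account below is of which genes moved and in which direction.

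**Figure D1:**
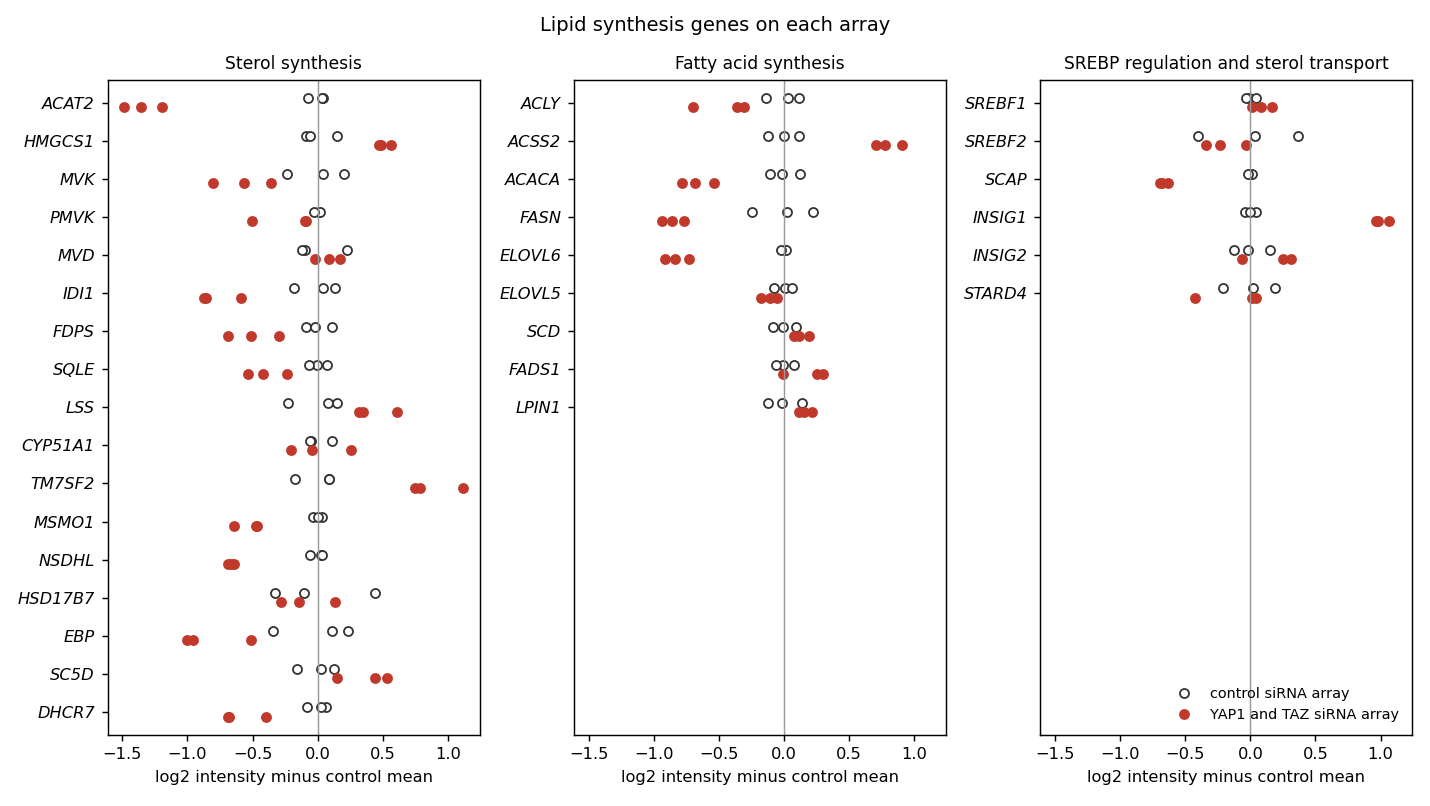
Log2 intensity of each tested gene on each of the 6 arrays, minus the gene's control mean, in panels for sterol synthesis, fatty acid genes and regulators; every point is 1 array, coloured by group. The knockdown points of ACAT2 lie farthest to the left, and those of INSIG1 and TM7SF2, the latter not above background on any control array, farthest to the right.

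In sterol synthesis, 9 of the 17 tested genes fell, 4 rose and 4 did not pass, a share of 76.5% called beside 54.8% of all genes. ACAT2, IDI1, EBP and NSDHL fell most, TM7SF2, HMGCS1, LSS and SC5D rose, and the median log2 change was -0.40, with genes detected in both groups from -1.34 to 0.51. TM7SF2 was not above background in the controls, so its rise is only a bound. The 3 knockdown values lay below all 3 control values for 10 of the 17 genes and above them for 4, where 31.5% and 30.9% of all tested genes did so.

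The entry to the pathway held its largest fall. ACAT2 encodes the cytosolic thiolase that joins acetyl-CoA units in the opening reaction, and its log2 intensity was 10.14, 10.03 and 10.13 in the controls and 8.62, 8.91 and 8.75 in the knockdown. All 3 knockdown arrays were far below the controls, a 2.54-fold fall (log2 change -1.34 ± 0.106, 95% interval -1.58 to -1.11, adjusted p = 1.7e-06), in a table where 5.54% of genes were called at least 2-fold lower. A dimmer second ACAT2 probe fell by 0.47 (adjusted p = 0.00565), but it lay near background and was detected on only 2 control arrays and 1 knockdown array.

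HMGCS1, the synthase that makes the substrate for mevalonate, went the other way. It read 7.81, 7.84 and 8.05 in the controls and 8.39, 8.46 and 8.37 in the knockdown, a 1.42-fold rise (log2 change 0.51 ± 0.103, adjusted p = 0.0016). The groups did not overlap after normalisation, but the deposited intensities did, at 302, 248 and 326 against 302, 309 and 315. Under scaling of arrays to one median, the alternative to quantile normalisation, the change was 0.37 and no longer passed (adjusted p = 0.116). Deposited intensities are not adjusted for array brightness. The median over all probes was 79.7, 64.7 and 83.0 in the controls and 62.2, 71.7 and 63.5 in the knockdown. Control replicates 1 and 3 were thus brighter than every knockdown array, which makes a rise look smaller and a fall larger in deposited values. Such values are given here only for genes that rose.

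Of the enzymes that turn mevalonate into isoprenoids, 3 of 5 fell and none rose, beside 27.5% lower and 27.4% higher of all genes tested. IDI1, which isomerises isopentenyl diphosphate, read 9.12, 8.89 and 9.21 in the controls and 8.20, 8.48 and 8.22 in the knockdown, a fall of 1.71-fold (log2 change -0.77 ± 0.12, adjusted p = 0.000268). FDPS, which builds farnesyl diphosphate, read 8.51, 8.58 and 8.71 against 7.91, 8.30 and 8.08, a fall of 1.41-fold (adjusted p = 0.00449). Knockdown values of both genes were below every control value. MVK, mevalonate kinase, was dim, at 6.82, 6.66 and 6.38 against 6.05, 5.82 and 6.26, and was detected on 2 control arrays and 1 knockdown array (log2 change -0.58, adjusted p = 0.00536). PMVK, the kinase of the next step, had lower values on every knockdown array (7.77, 7.78 and 7.73 against 7.26, 7.66 and 7.67) but did not pass (log2 change -0.23, 95% interval -0.50 to 0.04, adjusted p = 0.141). MVD, the decarboxylase, differed by 0.08 (95% interval -0.18 to 0.34, adjusted p = 0.607). The 7 genes up to farnesyl diphosphate had a median log2 change of -0.50.

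From squalene to cholesterol, 5 of 10 tested genes fell and 3 rose, with a median of -0.25, beside 27.5% lower and 27.4% higher of all genes tested. Of the 3 that rose, TM7SF2 was not above background on any control array, and LSS and SC5D lost their calls with median scaling. SQLE, the epoxidase that opens this stretch, read 9.69, 9.62 and 9.56 in the controls and 9.20, 9.38 and 9.09 in the knockdown, all below the controls (log2 change -0.40, adjusted p = 0.00883), while its other probe did not pass (-0.15, adjusted p = 0.33). LSS, which closes the ring to lanosterol, rose from 8.84, 8.77 and 8.47 to 9.04, 9.31 and 9.01 (log2 change 0.42, adjusted p = 0.0159). That call depended on single arrays and on scaling: it was 0.31 without control replicate 3 (adjusted p = 0.065), 0.33 without knockdown replicate 2 (0.0507) and 0.23 with median scaling (0.370). The deposited LSS intensities overlapped between groups, at 612, 464 and 434 against 458, 520 and 471.

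The demethylation of lanosterol gave mixed directions. CYP51A1, the lanosterol demethylase, read 9.33, 9.48 and 9.31 against 9.63, 9.17 and 9.33, and the groups overlapped (log2 change 0.01, 95% interval -0.27 to 0.28, adjusted p = 0.972). TM7SF2, a sterol reductase, read 6.04, 6.04 and 5.77 in the controls, where no array detected it, and 6.73, 6.70 and 7.07 in the knockdown, where all 3 did. It was at least 1.41-fold higher in the knockdown (fitted log2 change 0.88, adjusted p = 0.000149), and it entered the test only through the group in which it was high. MSMO1 and NSDHL, which act in removing sterol methyl groups, both fell. NSDHL varied little within groups, at 8.78, 8.79 and 8.69 in the controls and 8.06, 8.09 and 8.11 in the knockdown (log2 change -0.67 ± 0.093, adjusted p = 0.000123). MSMO1 went from 9.29, 9.36 and 9.32 to 8.85, 8.68 and 8.86 on its brightest probe (-0.53, adjusted p = 0.000942), but its other 2 tested probes gave -0.24 (0.14) and 0.28 (0.0691), so the probes of this gene disagree. HSD17B7, the keto-reductase of the same steps, has a closely similar pseudogene that its probe may also read, and its groups overlapped (log2 change -0.10, 95% interval -0.50 to 0.30, adjusted p = 0.674).

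The last steps followed the same split. EBP, the sterol isomerase, read 7.92, 8.37 and 8.50 in the controls and 7.26, 7.75 and 7.30 in the knockdown, a 1.77-fold fall (log2 change -0.82 ± 0.168, adjusted p = 0.00171). DHCR7, the reductase of a final step to cholesterol, read 8.28, 8.24 and 8.13 against 7.53, 7.82 and 7.54 (-0.59 ± 0.111, adjusted p = 0.000991), and its second probe fell by 0.49 (adjusted p = 0.00206). In both genes every knockdown value was under every control value. SC5D, the desaturase between them, rose from 8.08, 7.98 and 7.80 to 8.10, 8.48 and 8.40 (0.37, adjusted p = 0.0263). SC5D did not pass once control replicate 2 (adjusted p = 0.0594), control replicate 3 (0.0985), knockdown replicate 2 (0.0795) or knockdown replicate 3 (0.0851) was left out, nor with median scaling (0.24, 0.328), and its deposited intensities overlapped, at 360, 271 and 276 against 253, 314 and 320. Without control replicate 3, or without knockdown replicate 2, 2 sterol genes rose in place of 4. With median scaling, under which the median of all genes was -0.107, 9 sterol genes again fell and 1 rose, TM7SF2, which no control array detected.

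**Figure D2:**
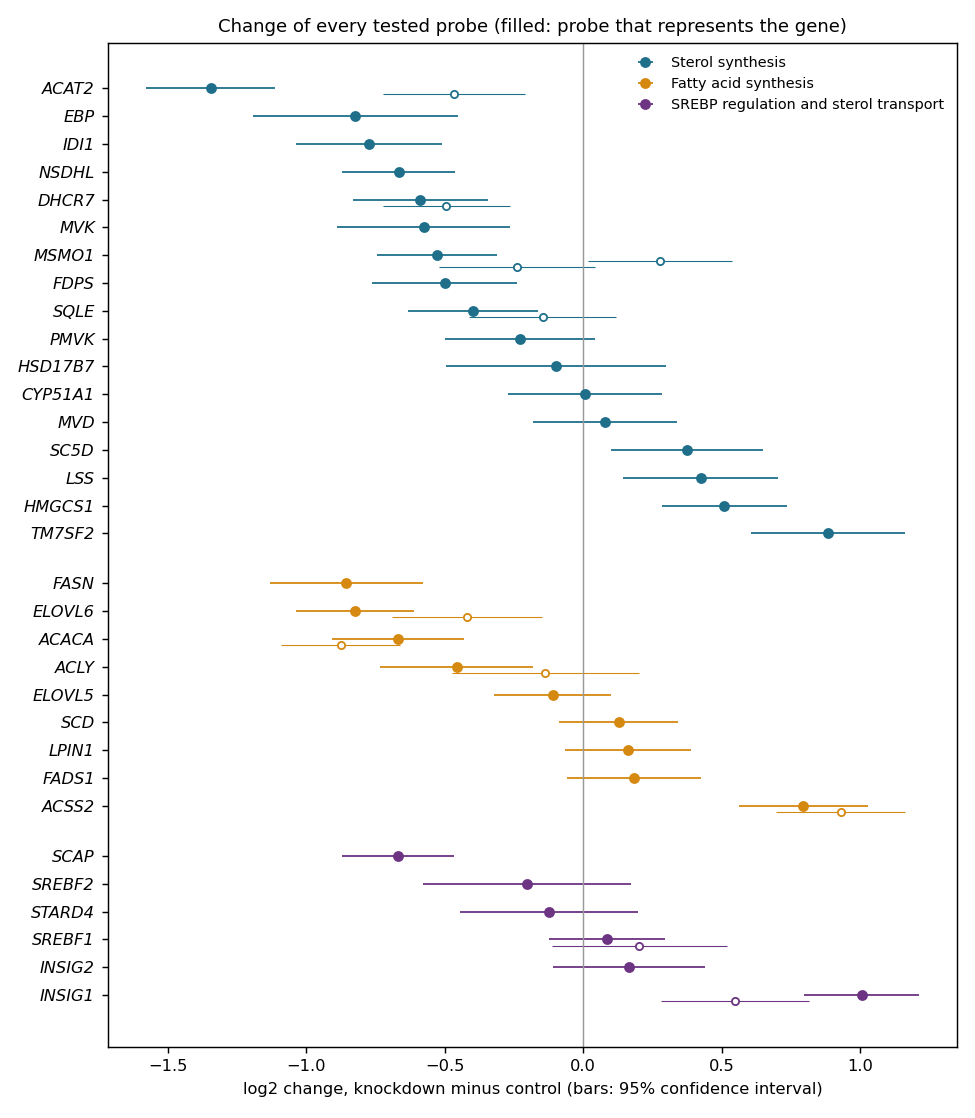
Log2 change, knockdown minus control, of every tested probe of the lipid genes, with 95% confidence intervals; filled points are the probe that represents the gene and open points the gene's other probes. The probes of ACACA, ACSS2, INSIG1 and DHCR7 lie on the same side of 0, and those of MSMO1 on both sides.

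Among the fatty acid genes, 4 of 9 tested fell, 1 rose and 4 did not pass, with a median log2 change of -0.11. The share called was 55.6%, near the 54.8% of all genes tested. The genes that fell were FASN, ELOVL6 and ACACA, which act in chain building, and ACLY. ACSS2 rose, and ELOVL5, the other elongase of the list, SCD, FADS1 and LPIN1 did not pass. FASN, the fatty acid synthase, read 10.83, 11.03 and 10.56 in the controls and 9.87, 9.94 and 10.04 in the knockdown, a 1.81-fold fall (log2 change -0.86 ± 0.126, adjusted p = 0.000176). ACACA, the acetyl-CoA carboxylase that supplies its malonyl units, read 8.76, 8.99 and 8.85 against 8.33, 8.08 and 8.18 (-0.67 ± 0.108, adjusted p = 0.000362), and its other probe fell by 0.88 (adjusted p = 2.46e-05). ELOVL6, which lengthens the product of FASN, read 8.84, 8.85 and 8.81 against 8.10, 7.92 and 8.0 (-0.82 ± 0.0966, adjusted p = 3.4e-05), and its other probe fell by 0.42 (adjusted p = 0.0139). In all 3 genes the knockdown arrays stood apart from, and below, the controls.

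The 2 cytosolic sources of acetyl-CoA moved in opposite directions. ACLY, which splits citrate, went from 10.84, 10.92 and 10.67 to 10.45, 10.50 and 10.11 (log2 change -0.46, adjusted p = 0.00997), with a second probe that did not pass (-0.14, 0.483). ACSS2, which activates acetate, read 8.65, 8.76 and 8.53 in the controls and 9.42, 9.35 and 9.55 in the knockdown, a 1.73-fold rise (0.79 ± 0.106, adjusted p = 8.91e-05), and its second probe gave 0.93 (adjusted p = 2.81e-05). Every knockdown value of ACSS2 was above every control value, and with median scaling its change was 0.60 and still passed. Its deposited intensities touched at 535, with 535, 462 and 449 against 591, 535 and 675, while those of the second probe did not overlap (389, 362 and 340 against 506, 473 and 521).

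The other 4 tested genes of the fatty acid list did not pass. SCD, which makes monounsaturated fatty acids, differed by 0.13 (95% interval -0.09 to 0.34, adjusted p = 0.3), and ELOVL5, an elongase of polyunsaturated chains, by -0.11 (-0.32 to 0.10, adjusted p = 0.364). FADS1, a desaturase of polyunsaturated chains, read 9.34, 9.26 and 9.21 against 9.57, 9.27 and 9.53 (0.18, -0.06 to 0.42, adjusted p = 0.188), and passed without knockdown replicate 2 (0.28, adjusted p = 0.0467). LPIN1, a phosphatidate phosphatase of triglyceride synthesis, differed by 0.16 (-0.06 to 0.39, adjusted p = 0.213). These intervals leave room for changes of up to about 0.4 on the log2 scale. FADS2, the partner desaturase of FADS1, was detected on 1 knockdown array and no control array and was not tested.

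Of the 6 regulators and carriers, 1 rose, 1 fell and 4 did not pass (33.3% called, beside 54.8% of all genes tested), and their median was -0.02. The gene that rose was INSIG1, the sterol-responsive anchor that keeps SCAP in the endoplasmic reticulum, and the gene that fell was SCAP. INSIG1 read 10.15, 10.07 and 10.11 in the controls and 11.18, 11.09 and 11.07 in the knockdown, a 2.01-fold rise (log2 change 1.0 ± 0.0939, adjusted p = 6.3e-06), and 5.2% of all genes were called at least 2-fold higher. Its deposited intensities, 1493, 1124 and 1328 against 2009, 1698 and 1951, did not overlap either, and its second probe rose by 0.55 (adjusted p = 0.00289). SCAP read 9.02, 9.04 and 9.01 against 8.33, 8.39 and 8.34, a 1.59-fold fall with little spread in either group (-0.67 ± 0.0916, adjusted p = 0.000108).

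The transcripts of the SREBPs themselves did not pass. SREBF1 read 8.21, 8.26 and 8.19 against 8.30, 8.23 and 8.38 (log2 change 0.08, 95% interval -0.13 to 0.30, adjusted p = 0.485). SREBF2 was dim, detected on 2 control arrays and 1 knockdown array, and differed by -0.20 (-0.58 to 0.17, adjusted p = 0.349), with a call gained without control replicate 1 (-0.40, adjusted p = 0.0389). INSIG2, the second INSIG protein, differed by 0.17 (-0.11 to 0.44, adjusted p = 0.29), and STARD4, a cytosolic sterol carrier, by -0.12 (-0.45 to 0.20, adjusted p = 0.506). SREBPs are activated by cleavage, which transcript levels do not measure.

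Set side by side, the sterol genes had the lower median, -0.40 against -0.11 for the fatty acid genes, a difference of -0.29. On the single arrays, the median deviation of the sterol genes from their control means was 0.02, 0.02 and -0.03 in the controls and -0.47, -0.28 and -0.36 in the knockdown. For the fatty acid genes it was 0.01, 0.02 and -0.03 in the controls and -0.17, -0.05 and -0.11 in the knockdown. Both lists were lower on every knockdown array, the sterol list by more. The difference rested on which genes count as fatty acid genes: without ACLY, ACSS2 and LPIN1, which neither build nor modify acyl chains, the fatty acid median was -0.39 and the difference -0.0086. Averaging the probes of each gene, in place of taking the brightest, gave a difference of -0.12. The difference thus depended on which genes and probes were taken, and both lists held genes that fell beside genes that rose.

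**Figure D3:**
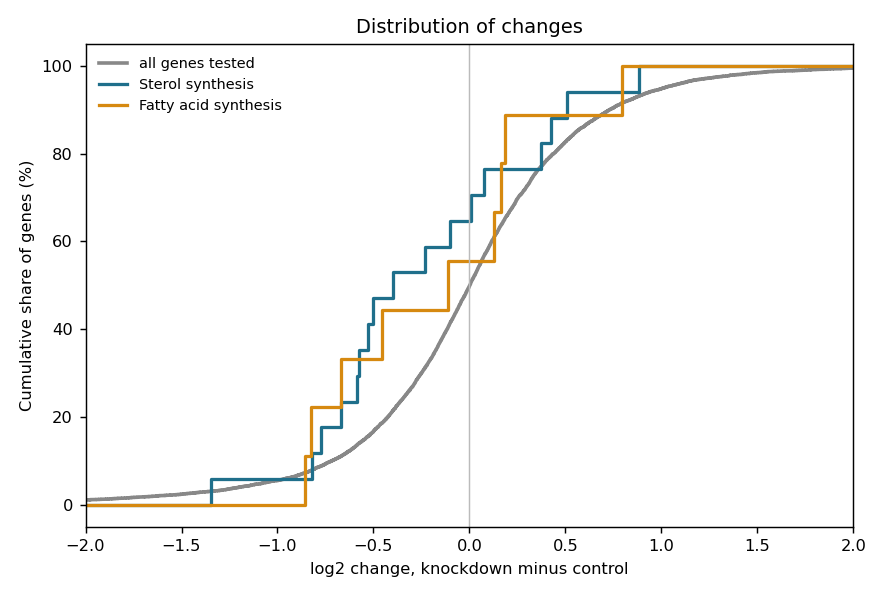
Cumulative share of genes, in percent, against log2 change, knockdown minus control, for sterol synthesis genes, fatty acid genes and all genes tested. The medians are -0.40 for sterol genes, -0.11 for fatty acid genes and 0.0016 for all genes, and both small lists reach both sides of 0.

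SREBPs bind sterol regulatory elements in promoters, usually beside sites of the factor NF-Y, which binds CCAAT. The 250 bases upstream of RefSeq gene starts (GRCh38.p14) were available for 30 of the 34 genes and were searched on both strands. The element TCACNCCAC occurred upstream of 1 of the 30, SREBF2, and of 1.09% of all 27305 genes with a window, and its shorter form CACNCCAC, which lies within it, upstream of 6 (20.0%) and 5.89%. CCAAT occurred upstream of 21 of the 30 (70.0%) and of 37.0% of all genes, by list 13 of 15 sterol genes, 5 of 9 fatty acid genes and 3 of 6 regulators. CACGTG, the E box, occurred upstream of 4 (13.3%) and of 7.73%. A gene with several windows counted once if any of them matched, so genes with more windows had more room for a match. The CACNCCAC matches of IDI1, SC5D and ACACA lay only in windows that overlapped the gene itself. A match is a run of letters and not a measured binding site. In the windows below, genes that fell and genes that rose both carry CCAAT. HMGCS1 and ACSS2, which rose, each had another window that overlapped the gene itself and held 0 CCAAT matches. For these genes a match thus depended on which annotated start was taken. EBP, NSDHL and MSMO1 fell most among the sterol genes whose window overlapped no gene, ACSS2 is the called fatty acid gene whose window overlapped no gene, and HMGCS1 was added after its values were seen because it rose. Capitals mark CCAAT or its reverse complement ATTGG, and each sequence runs 5′ to 3′ on the gene's strand and ends at the base before the start.
EBP, chrX:48521558-48521807, plus strand: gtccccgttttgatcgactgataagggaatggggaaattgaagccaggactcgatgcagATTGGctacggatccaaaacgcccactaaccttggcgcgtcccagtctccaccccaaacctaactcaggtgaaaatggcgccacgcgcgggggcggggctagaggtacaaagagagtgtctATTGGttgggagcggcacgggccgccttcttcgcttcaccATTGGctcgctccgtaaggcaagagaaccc
NSDHL, chrX:152830813-152831062, plus strand: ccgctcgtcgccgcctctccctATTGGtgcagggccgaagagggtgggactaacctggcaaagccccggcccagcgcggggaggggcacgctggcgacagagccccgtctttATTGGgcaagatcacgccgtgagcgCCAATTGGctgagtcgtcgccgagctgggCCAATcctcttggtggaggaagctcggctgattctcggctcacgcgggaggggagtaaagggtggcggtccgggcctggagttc
MSMO1, chr4:165327419-165327668, plus strand: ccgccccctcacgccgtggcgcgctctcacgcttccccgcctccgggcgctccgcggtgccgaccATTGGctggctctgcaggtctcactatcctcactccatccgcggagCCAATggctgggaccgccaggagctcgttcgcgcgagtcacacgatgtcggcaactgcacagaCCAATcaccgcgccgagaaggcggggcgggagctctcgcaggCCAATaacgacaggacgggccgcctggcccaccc
HMGCS1, chr5:43313413-43313662, minus strand: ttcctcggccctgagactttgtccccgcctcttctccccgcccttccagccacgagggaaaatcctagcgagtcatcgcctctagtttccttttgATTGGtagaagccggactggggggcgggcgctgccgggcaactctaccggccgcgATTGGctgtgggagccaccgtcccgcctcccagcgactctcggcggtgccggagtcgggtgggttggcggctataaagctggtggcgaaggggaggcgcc
ACSS2, chr20:34874739-34874988, plus strand: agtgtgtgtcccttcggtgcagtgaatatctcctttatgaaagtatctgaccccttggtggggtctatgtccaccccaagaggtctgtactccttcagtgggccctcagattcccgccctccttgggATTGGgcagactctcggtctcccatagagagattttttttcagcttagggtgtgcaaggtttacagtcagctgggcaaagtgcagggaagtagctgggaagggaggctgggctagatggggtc
EBP held 3 matches, NSDHL 5, of which 2 overlap, and MSMO1 4, while HMGCS1 held 2 and ACSS2 1. None of the 5 windows held TCACNCCAC, CACNCCAC or CACGTG.

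Other lipid genes, listed by function with earlier results of these data known, gave a frame for these changes. Of 62 such genes 51 had a named probe and 38 were tested, and 13 rose (34.2%) and 12 fell (31.6%), beside 27.4% and 27.5% of all genes.

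Of the 4 tested genes of cholesterol export and oxysterol sensing, 3 were higher and none lower, with NR1H3 among the 3. Over the 3 genes detected on all 6 arrays, which leave out NR1H3, 2 were higher and the median log2 change was 0.76. The median was 0.135 over all 7 with a named probe and no detection filter. APOE, the lipoprotein component that carries exported lipid, rose 2.71-fold (1.44 ± 0.128, adjusted p = 4.37e-06). ABCA1, the pump that loads cholesterol onto apolipoproteins, rose 1.7-fold (0.76, adjusted p = 0.000155). NR1H3, the oxysterol receptor LXR-alpha, was at least 1.30-fold higher (adjusted p = 4.19e-06). It was not above background on any control array, and it entered the test only through the group in which it was high. ABCG1, a related pump, did not pass (0.14, adjusted p = 0.482). With median scaling APOE (1.25) and ABCA1 (0.55) still passed.

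Other genes of sterol supply were split, with 3 of 7 tested higher and 3 lower and a median of 0.18. That median was not stable: with median scaling it was -0.042, with 2 genes higher, without a detection filter 0.11 over 8 genes, 2 higher and 2 lower, and 0.095 without control replicate 3 or 0.12 without knockdown replicate 2. TMEM97, a sterol-regulated membrane protein also known as the sigma-2 receptor, fell 3.6-fold on its brightest probe (-1.85, adjusted p = 1.48e-07), although its other tested probe gave 0.13. LBR, a nuclear membrane protein with the same sterol reductase activity as TM7SF2, fell by 0.76 (adjusted p = 9.74e-05), opposite to TM7SF2, and its other tested probe fell by 0.49 (adjusted p = 0.00182). MYLIP, the ubiquitin ligase that removes lipoprotein receptors, rose by 0.86 (adjusted p = 0.00018), and GGPS1, which makes geranylgeranyl diphosphate, by 0.73 (adjusted p = 0.000123). SOAT1, which esterifies cholesterol, fell by 0.40 (adjusted p = 0.0141), a call lost without control replicate 1 (-0.31, 0.062) or knockdown replicate 3 (-0.34, 0.0626).

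Genes that process or turn over SREBPs had 2 of 6 tested higher and 3 lower, with a median of -0.11. With median scaling none rose and the median was -0.26, with probes averaged it was -0.23, and without a detection filter it was 0.087 over 7 genes, 1 higher and 2 lower. It was -0.18 without control replicate 3, where 1 gene rose, and -0.064 without control replicate 2, and 1 gene rose without knockdown replicate 1. PAQR3, a Golgi anchor of SCAP, fell by 0.70 (adjusted p = 0.000198), and ERLIN1, an endoplasmic reticulum protein that restrains SREBPs, by 0.64 (adjusted p = 0.000745). MBTPS1, the site-1 protease that makes the initial cut in SREBPs, rose by 0.48 (adjusted p = 0.00347) and did not pass with median scaling (0.26, 0.287), and its other tested probe rose by 0.84 (adjusted p = 0.00119). The calls of ERLIN2 (0.36, adjusted p = 0.013) and FBXW7 (-0.34, adjusted p = 0.0145) were lost when single arrays were left out, control replicate 3 or knockdown replicate 1 for ERLIN2, which did not pass with median scaling either (0.24, 0.345), and control replicate 2 or knockdown replicate 1 for FBXW7. A dimmer FBXW7 probe fell by 0.84 (adjusted p = 0.000198).

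Among other fatty acid genes, 3 of 12 tested rose and 5 fell, with a median of -0.12. With median scaling 1 rose and 4 fell and the median was -0.21, with probes averaged it was -0.18, and without knockdown replicate 2 it was -0.059. The number that rose was 2 without control replicate 1, control replicate 3 or knockdown replicate 3, and without a detection filter 2 of 18 rose and 4 fell. ELOVL2, an elongase of very long polyunsaturated chains, fell 2.18-fold (-1.12, adjusted p = 2.74e-05), HACD2, the dehydratase of chain elongation, 1.78-fold (-0.83, adjusted p = 2.97e-05), and HSD17B12, its ketoacyl reductase, by 0.40 (adjusted p = 0.00482). The other tested probes of HACD2 (-0.66, adjusted p = 0.000951) and HSD17B12 (-0.32, adjusted p = 0.0147) fell too. These 3 genes act in chain elongation, as ELOVL6 does, but not all tested elongation genes fell. ELOVL1 fell by 0.35 (adjusted p = 0.00971), while TECR (0.03, 0.842) and ELOVL7 (0.11, 0.449) did not pass. HACD3 did not pass on its brightest probe (-0.07, 0.545), and its other tested probes gave -0.36 (0.0139) and -0.17 (0.256). MID1IP1, an activator of acetyl-CoA carboxylase, rose by 0.65 on its brightest probe (adjusted p = 0.00029), opposite to ACACA, and its other tested probe did not pass (0.23, adjusted p = 0.0741). ME1, which supplies NADPH, rose by 0.59 (adjusted p = 0.000662) and did not pass with median scaling (0.38, 0.106).

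In glycerolipid synthesis and storage, 2 of 9 tested genes rose and 1 fell, with a median of 0.13, which was 0.030 with median scaling, 0.21 without control replicate 1 and 0.084 without control replicate 3. The number that rose was 3 without background correction, with an offset of 50, with the authors' values or with probes averaged. It was also 3 over probes detected on all 6 arrays, and without control replicate 2 or knockdown replicate 2. PLIN2, the lipid droplet coat protein, rose 3.04-fold (1.60 ± 0.0944, adjusted p = 2e-07), and its other probe gave 1.56. GPAM, the mitochondrial acyltransferase that starts glycerolipid synthesis, fell by 0.77 (adjusted p = 0.000227), and AGPAT1, the acyltransferase of the next step, rose by 0.81 (adjusted p = 0.000173). GPAM and AGPAT1 thus changed in opposite directions. The related AGPAT2 did not pass on its brightest probe (0.18, adjusted p = 0.247), and its other tested probes gave 0.30 (0.0295) and 0.43 (0.00624).

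**Figure D4:**
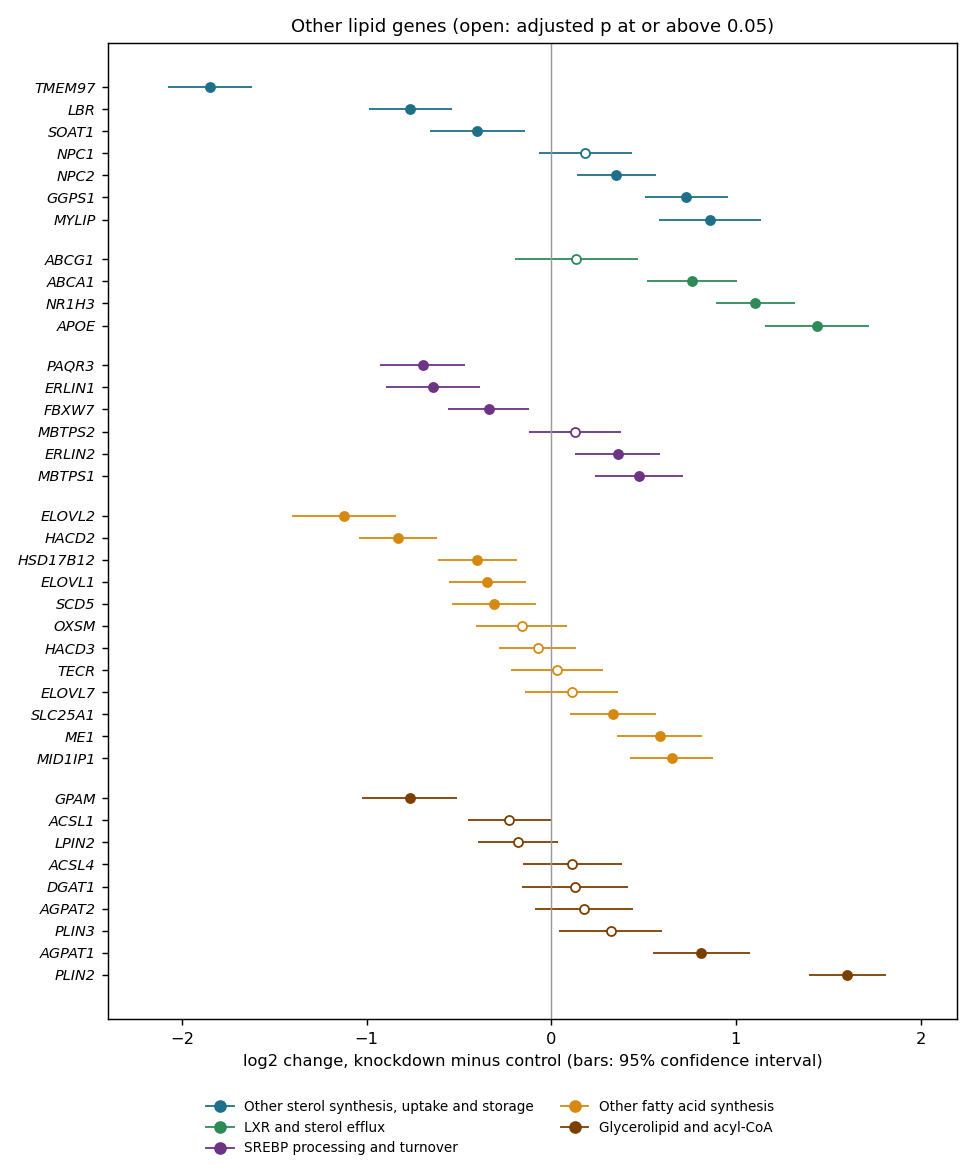
Log2 change, knockdown minus control, of the tested genes of the other lipid lists, with 95% confidence intervals; open points did not pass an adjusted p of 0.05. PLIN2 and APOE lie farthest to the right, at 1.60 and 1.44, and TMEM97 farthest to the left, at -1.85; the point of NR1H3 is fitted against controls not above background.

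**Figure D5:**
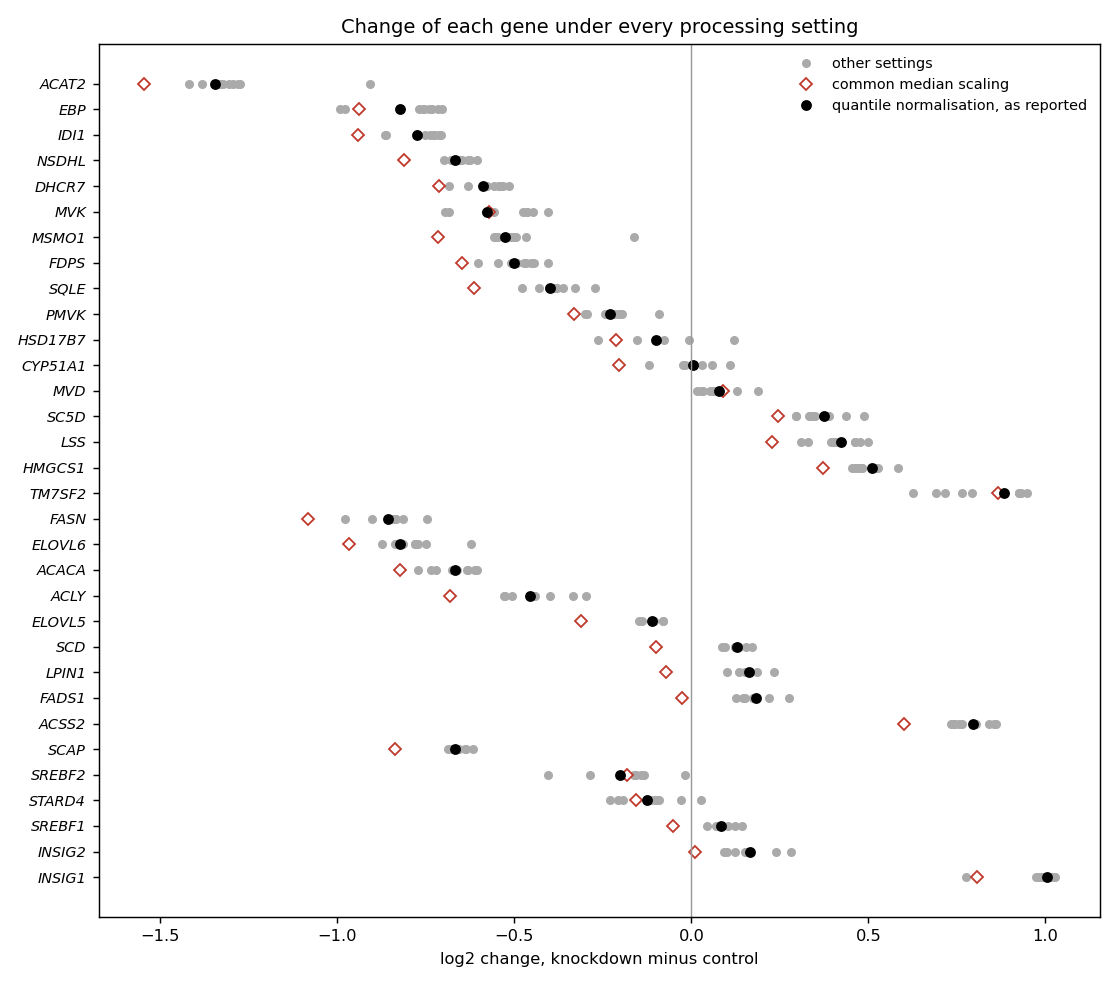
Log2 change, knockdown minus control, of each tested sterol, fatty acid and regulator gene under every processing setting, 1 point per setting. With median scaling INSIG1 (0.81) and ACSS2 (0.60) stay to the right of 0, and CYP51A1, SCD, FADS1, LPIN1 and SREBF1 move to its left.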

How the data were processed

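RNA of 6 SK-Hep1 samples was labelled with biotin and read on bead arrays, with BeadStudio (version not given) named in the submitters' processing notes. The authors deposited non-normalised intensity values on a linear scale, without control probes or detection p-values, and processed log2 values, 99.9% of which lay within 0.1 of quantile-normalised log2 intensities. In R 4.3.3 with limma 3.58.1, normexp (saddle, offset 16) was fitted to each array's own intensities, followed by quantile normalisation and log2. Detection came from the values below each array's density mode (bandwidth 0.05), mirrored, at a p of 0.05, and probes detected on at least 3 of 6 arrays were tested (15899). Each gene is reported by its brightest detected probe. Tests were lmFit and eBayes with no covariate, with Benjamini-Hochberg adjustment over the tested probes, and the procedure was tested on simulated data. Where no array of a group detected a gene, its fold is a bound set by the lowest detected signal of each array. Of 47231 probes, 30113 had 1 symbol, 8 several and 17110 none here. All members were named, with YAP1, WWTR1, CCN1 and CCN2 and, of each other list, up to 5 called genes of largest change. ABCG1, ELOVL1, TECR, ELOVL7, HACD3 and AGPAT2 were named in addition. The members and lists were chosen with earlier results of these data known. Alternatives were median scaling, no background correction, offset 50, the authors' values, other detection filters, probes averaged per gene, a replicate block and leaving out each array. Promoter windows came from RefSeq (GRCh38.p14), and those overlapping a gene were not shown. The files used here name no slide or scan.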

Additional observations from a re-analysis of the deposited data

How the results depend on the processing

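Over the alternatives run, 7 to 9 sterol genes and 3 to 4 fatty acid genes fell, beside 9 and 4 as reported. With median scaling 1 sterol gene rose in place of 4, the sterol and fatty acid medians were -0.57 and -0.31, where the median of all genes was -0.107, and 8 other pathway genes rose in place of 13; of all calls, 36.77% were higher (1439, with 2475 lower) in place of 49.89%. HMGCS1, LSS and SC5D lost their calls there, and CYP51A1 (-0.20), SCD (-0.10), FADS1 (-0.026), LPIN1 (-0.070) and SREBF1 (-0.050), none called, turned negative. Without a detection filter 2 sterol genes rose, LSS (adjusted p = 0.0824), SC5D (0.125), SQLE (0.0664) and ACLY (0.0574) did not pass, the fatty acid median over 10 genes was -0.016 and the difference between lists -0.38, which was -0.34 over probes detected on all 6 arrays. With each gene's probes averaged the sterol median was -0.23 and the difference -0.12, and SQLE (-0.27, 0.0506), MSMO1 (-0.16, 0.155) and ACLY (-0.30, 0.0572) did not pass. Leaving out ACLY, ACSS2 and LPIN1 gave a difference of -0.0086. Leaving out single arrays gave 2 to 4 sterol genes and 1 to 2 fatty acid genes higher, 1 to 2 regulators lower and a difference from -0.35 to -0.22. It turned the sign of CYP51A1 (-0.02 without control replicate 1 or 3, -0.12 without knockdown replicate 1; range -0.12 to 0.11), HSD17B7 (0.12 without control replicate 3; range -0.26 to 0.12) and STARD4 (0.027 without knockdown replicate 3; range -0.23 to 0.027), none of which was called. Same-numbered samples of the groups deviated from their group means with correlations of -0.18, -0.13 and -0.01, and differently numbered ones with -0.11 to 0.23. Samples sharing a number thus did not deviate together, but so few samples cannot show whether a number marks a shared day or culture. With the replicate block 2523 genes rose and 2520 fell in all. The member counts were then 4 and 9, 1 and 4, and 1 and 1, higher and lower, for sterol, fatty acid and regulator genes. Dim genes (MVK, MVD, TM7SF2, SREBF2) lie near background, where the correction sets the size of a change. The other pathway genes' alternatives were chosen after seeing the data.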
